A study of Mus musculus with 4 samples.

Results

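The genes encoding the eukaryotic translation initiation factors were followed through 4 lists of open chromatin sites from mouse haematopoietic stem cells (HSCs). They were taken as all protein-coding genes of the mouse RefSeq table whose symbol begins with Eif and a digit from 1 to 6, which gave 56 of the 21883 protein-coding genes of the autosomes and sex chromosomes. The set includes the Eif2ak kinases and the Eif4ebp repressors, and the rule uses no measured value. All libraries came from wild type C57BL/6 male mice aged 8 weeks. HSCs were sorted from bone marrow as LSK cells lacking CD34, CD48 and Flt3 and carrying Slam1, and were divided into a CD93-positive and a CD93-negative fraction, with 2 ATAC-seq libraries of each. The labels name no treatment and no genetic change, and CD93 is the labelled difference between the fractions. They give pooled leg bones as the source of the marrow and do not say that the libraries of a fraction are separate animals, so a p-value measures a spread that may be technical.

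Initiation is the step at which the small ribosomal subunit, loaded with the initiator methionyl-tRNA, is brought to an mRNA and placed at a start codon. eIF2 carries the initiator tRNA as a complex with GTP, eIF2B recharges eIF2 with GTP, and the eIF2 kinases block that exchange under stress. eIF4F binds the mRNA cap and eIF3 joins it to the small subunit, after which eIF1, eIF1A and eIF5 govern start codon choice and eIF5B joins the large subunit. HSCs are known for a low rate of protein synthesis compared with other blood progenitors.

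The measured unit was the peak summit, the single base at which a called region of Tn5 transposase insertion was highest. Its score is the value deposited by the authors, taken as −log10 of a p or q value, and it is set against the background of its own library, so scores were ranked within a library and not compared as levels between libraries. A gene was counted as having a gene-end summit when a summit lay within 1000 bp of either end of its RefSeq record. CD93-positive replicate 1 had 21 summits and replicate 2 had 711, while CD93-negative replicate 1 had 7989 and replicate 2 had 2755. Read depth is unknown. Of 12 HSC marker genes, Tal1 alone had a summit at a gene end, in CD93-negative replicate 1, and none had one in either CD93-positive library. None of the 5 endothelial, 5 B lineage, 4 T and NK and 5 erythroid and megakaryocytic marker genes was reached in any of the 4 libraries. Of 7 myeloid marker genes, S100a8 and S100a9 had one in CD93-negative replicate 1 and S100a8 in CD93-negative replicate 2. Of the sort genes Cd93, Cd34, Cd48 and Flt3, only Flt3 had one, in CD93-negative replicate 1. CD93-negative replicate 1 thus reached 8.33% of the HSC, 28.6% of the myeloid and 25% of the sort genes, against 32.2% of all genes. CD93-negative replicate 2 reached 14.3% of the myeloid genes and 12.9% of all genes. The shares of all genes were 3.22% in CD93-positive replicate 2 and 0.0183% in CD93-positive replicate 1. With so few marker genes reached, the labelled cell type could be checked only weakly at gene ends, and the part of other cells in the results was not tested.

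The stretches before the starts of 5 genes show what lay under the summits. They are the genes whose highest-scoring summit fell, in at least 2 libraries, in the stretch up to 250 bases before the annotated start nearest the gene's end. Only the part outside the gene's own record was used, and stretches that overlap another gene record were left out. Eif5a, whose summits lay inside its record, is not among the 5. The sequences below are from RefSeq on GRCm38.p6, the assembly behind mm10, and read 5′ to 3′ on the strand of the gene. Capitals mark matches, on either strand, to the motifs CCGGAA (ETS factors), GGGCGG (SP and KLF factors), CCAAT (NFY) and CACGTG (the E-box of MYC and related factors). Each run begins 250 bases before the start and ends at the last base before the gene record.
Eif5, chr12:111537851-111538100, plus strand: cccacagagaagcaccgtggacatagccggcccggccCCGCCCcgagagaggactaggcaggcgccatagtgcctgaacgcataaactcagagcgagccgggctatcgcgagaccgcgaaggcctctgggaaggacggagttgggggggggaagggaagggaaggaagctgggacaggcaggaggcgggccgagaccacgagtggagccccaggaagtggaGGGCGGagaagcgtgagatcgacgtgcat
Eif4a1, chr11:69672424-69672673, minus strand: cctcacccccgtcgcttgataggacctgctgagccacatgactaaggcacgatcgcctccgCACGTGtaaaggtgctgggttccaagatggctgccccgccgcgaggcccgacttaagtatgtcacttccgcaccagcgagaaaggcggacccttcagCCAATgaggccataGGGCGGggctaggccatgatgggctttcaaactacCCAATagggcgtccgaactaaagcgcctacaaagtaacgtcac
Eif2ak3, chr6:70844265-70844483, plus strand: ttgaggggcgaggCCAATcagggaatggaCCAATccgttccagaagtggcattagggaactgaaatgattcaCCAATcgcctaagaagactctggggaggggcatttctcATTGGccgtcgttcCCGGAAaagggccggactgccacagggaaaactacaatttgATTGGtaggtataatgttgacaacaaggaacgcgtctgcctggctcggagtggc
Eif1, chr11:100319699-100319948, plus strand: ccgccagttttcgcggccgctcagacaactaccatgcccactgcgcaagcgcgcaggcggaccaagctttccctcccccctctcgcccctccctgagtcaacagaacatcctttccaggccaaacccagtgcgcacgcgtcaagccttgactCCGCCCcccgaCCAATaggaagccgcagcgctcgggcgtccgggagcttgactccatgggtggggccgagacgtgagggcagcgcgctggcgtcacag
Eif2ak4, chr2:118388367-118388582, plus strand: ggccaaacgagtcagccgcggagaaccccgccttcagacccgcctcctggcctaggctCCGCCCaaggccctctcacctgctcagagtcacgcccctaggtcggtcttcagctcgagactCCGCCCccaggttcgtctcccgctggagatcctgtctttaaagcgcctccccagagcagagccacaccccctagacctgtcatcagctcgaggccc

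The Eif2ak3 stretch held 5 CCAAT matches and 1 CCGGAA match in its 219 bases, and no GGGCGG match. Eif4a1 had 2 CCAAT matches, 1 GGGCGG match and 1 CACGTG match in 250 bases. Eif1 had 1 CCAAT and 1 GGGCGG match, and Eif5 and Eif2ak4 had 2 GGGCGG matches each. A match is a run of letters in the reference and not a measured binding site.

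Most of the initiation factor genes had an open site at a gene end in the longest list, and few had one in the shorter lists. CD93-negative replicate 1 had a gene-end summit at 43 of the 56 genes, or 76.8% (exact Clopper-Pearson 95% interval 63.6 to 87.0), where 32.2% of all protein-coding genes had one. CD93-negative replicate 2 had one at 17 genes, or 30.4% (18.8 to 44.1), against 12.9% of all genes. CD93-positive replicate 2 had one at 6 genes, or 10.7% (4.03 to 21.9), against 3.22% of all genes. CD93-positive replicate 1 had none, which allows a share of up to 6.38%, and in that library 0.0183% of all genes had one. These intervals treat genes as independent and cover counting error only.

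The lists were then brought to one length by keeping only the highest-scoring summits. At the 711 summits of CD93-positive replicate 2, the number of initiation factor genes with a gene-end summit was 6 in that library, 9 in CD93-negative replicate 1 and 6 in CD93-negative replicate 2. The shares of all protein-coding genes were then 3.22%, 3.28% and 3.38%. The share of initiation factor genes was 16.1% (interval 7.62 to 28.3) in CD93-negative replicate 1 and 10.7% in the other 2 libraries. The interval covers counting error over genes and cannot compare libraries, since the same 56 genes were counted in each. With 2755 summits, CD93-negative replicate 1 reached 20 of the 56 genes and CD93-negative replicate 2 reached 17, while 12.9% of all genes were reached in each. The share of initiation factor genes lay above the share of all genes in the 3 libraries compared at 711 summits and in the 2 CD93-negative libraries compared at 2755. At equal length CD93-positive replicate 2 is the single library of its fraction, so the comparison between fractions has no replicate check. The 3 genes reached in all 3 of these shortened lists were Eif4a1, Eif4g2 and Eif5 (all genes, 1.12%). Eif1, Eif2s1 and Eif5a were reached in both CD93-negative lists and not in CD93-positive replicate 2 (all genes, 0.631%).

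**Figure D1:**
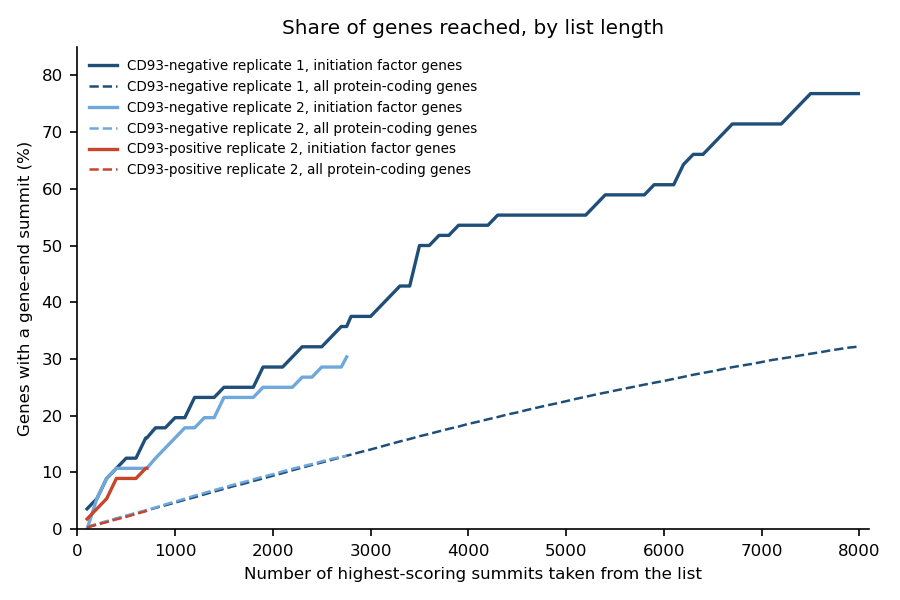
The horizontal axis is the number of highest-scoring summits taken from a list and the vertical axis the percent of genes with a summit within 1000 bp of an end. Solid lines are the 56 initiation factor genes and dashed lines all 21883 protein-coding genes, in colours by library. At 711 summits the solid lines stand at 10.7% to 16.1% and the dashed lines at 3.22% to 3.38%, and the dashed lines of the 3 libraries lie on each other.

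Taken with whole lists, the fractions did not overlap in the number of initiation factor genes reached, and neither did they over all protein-coding genes. Of the latter, CD93-positive replicate 1 reached 4 and replicate 2 reached 704, while CD93-negative replicate 1 reached 7040 and replicate 2 reached 2827. The mean was 30.0 ± 18.4 (SD, n = 2) in CD93-negative and 3.00 ± 4.24 (SD, n = 2) in CD93-positive HSCs, a difference of 27 genes. An exact permutation test over the 4 libraries gave a two-sided p of 0.333, the smallest that 2 libraries against 2 allow. List length moved with this count, from 21 summits and 0 genes to 7989 summits and 43 genes. At equal length in the 3 longer lists the difference was 1.5 genes. With 21 summits from every list it was 0, but so short a list reaches too few genes to compare the fractions.

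With whole lists of 21, 711, 2755 and 7989 summits, individual genes fell into classes that were nested except at Eif3e. The 5 genes Eif2a, Eif2ak3, Eif4a1, Eif4g2 and Eif5 had a gene-end summit in CD93-positive replicate 2 and in both CD93-negative libraries, where 2.78% of all genes did. Another 12 had one in both CD93-negative libraries and in neither CD93-positive one, against 9.94% of all genes. They were Eif1, Eif1ad, Eif2ak4, Eif2b4, Eif2s1, Eif3d, Eif4a2, Eif4b, Eif4e1b, Eif4h, Eif5a and Eif5b. CD93-negative replicate 1 alone reached 25 genes (all genes, 19.0%), and no library reached 13 (all genes, 67.6%). No initiation factor gene was reached in a CD93-positive library and in neither CD93-negative one (all genes, 0.0137%). Eif3e was the single gene in CD93-positive replicate 2 and CD93-negative replicate 1 that was absent from CD93-negative replicate 2, a pattern of 0.425% of all genes.

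**Figure D2:**
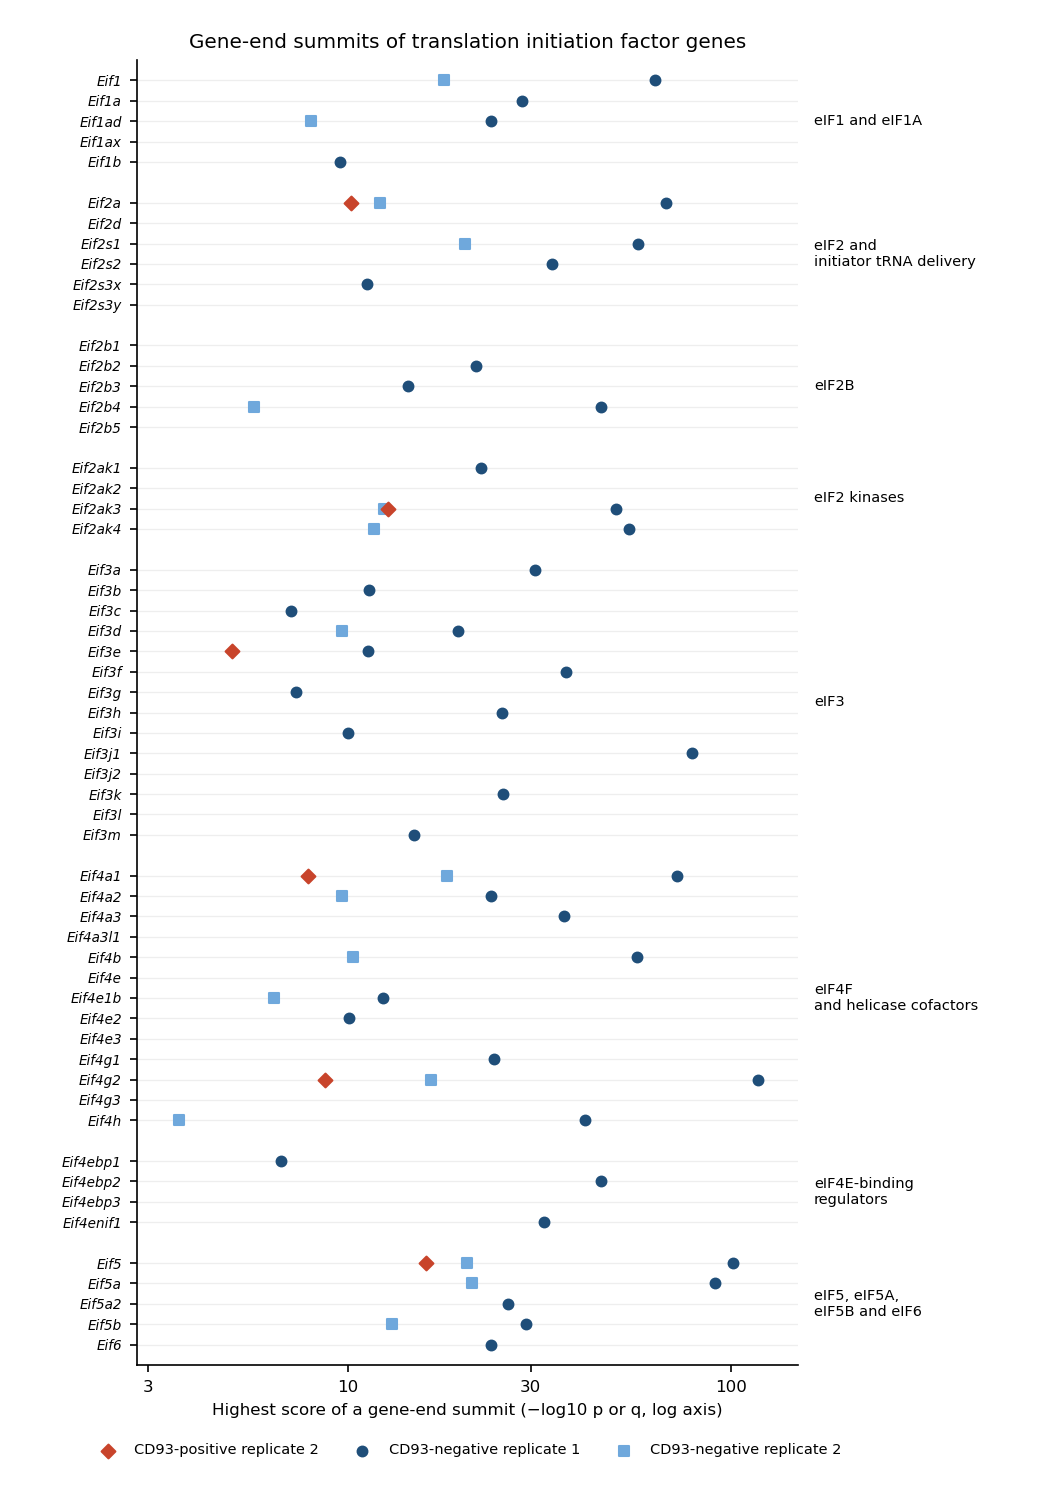
Each row is 1 of the 56 genes, grouped by factor, and the horizontal log axis is the score (−log10 of p or q) of its highest-scoring gene-end summit in each of 3 libraries. CD93-positive replicate 1 had no gene-end summit at these genes and is not drawn, and a row without a point had none in the 3 libraries. The 6 red diamonds of CD93-positive replicate 2 lie between 4.98 and 15.9, and the circles of CD93-negative replicate 1 between 6.68 and 117.6. Scores cannot be compared as levels between libraries.

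All 5 genes of the eIF5, eIF5A, eIF5B and eIF6 group were reached in CD93-negative replicate 1 (all genes, 32.2%). CD93-negative replicate 2 reached 3 (12.9%) and CD93-positive replicate 2 reached 1 (3.22%). Here and in the groups below the genes are few, and no group was tested against the shares of all genes. Eif5 (gene ID 217869, chromosome 12, 111538101 to 111546753), the GTPase-activating factor of eIF2, had scores of 15.9 in CD93-positive replicate 2, 101.7 in CD93-negative replicate 1 and 20.5 in CD93-negative replicate 2. It stood near the top of each list, at rank 36 of 704 genes with a gene-end summit, 38 of 7040 and 133 of 2827 in that order. Its summits lay 40, 12 and 113 bases upstream of the annotated start, in the stretch printed above. Eif5a, whose protein helps ribosomes past difficult peptide bonds, scored 91.1 and 21.03 in CD93-negative replicates 1 and 2, at ranks 77 and 114, and was not reached in CD93-positive replicate 2. Its summits lay 531 and 480 bp inside the gene record, 41 and 92 bases upstream of an annotated start.

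Eif5b, the subunit-joining GTPase, scored 29.1 and 13.1 in the CD93-negative libraries, but its summits lay 747 and 744 bases upstream of its start and only 31 and 28 bp from an end of its neighbour Txndc9. Eif5a2, a paralog of Eif5a, had a score of 26.2 and Eif6, which keeps ribosomal subunits apart, one of 23.7, both in CD93-negative replicate 1 alone. The Eif6 summit lay 10 bp from the end of a neighbouring gene and 595 bp from Eif6, and the highest within 500 bp of Eif6 scored 10.8. The eIF5 group thus holds genes with their own open start and genes counted through a neighbour.

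The eIF1 and eIF1A group acts in scanning for the start codon. CD93-negative replicate 1 reached 4 of its 5 genes (all genes, 32.2%) and CD93-negative replicate 2 reached 2 (12.9%). CD93-positive replicate 2 reached none (3.22%). Eif1 (gene ID 20918, chromosome 11, 100319949 to 100322099) scored 63.4 and 17.8 in CD93-negative replicates 1 and 2, at ranks 478 of 7040 and 302 of 2827. Its summits lay 63 and 106 bases upstream of the start, and in CD93-positive replicate 2 the nearest summit was 617471 bp away. Eif1ad, which encodes a protein with an eIF1A-like domain, scored 23.6 and 8.01 in those libraries, at a site also within 1000 bp of Banf1. Eif1a and Eif1b scored 28.6 and 9.55 in CD93-negative replicate 1 alone, and the X-linked Eif1ax had no gene-end summit.

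eIF2 has the subunits encoded by Eif2s1, Eif2s2 and the X- and Y-linked pair Eif2s3x and Eif2s3y. In CD93-negative replicate 1 the scores were 57.4 for Eif2s1, 34.1 for Eif2s2 and 11.2 for Eif2s3x, and Eif2s3y was reached in none of the 4 libraries. In CD93-negative replicate 2 Eif2s1 scored 20.3, at rank 145 of 2827, and Eif2s2 and Eif2s3x had none. The Eif2s1 summits lay 429 and 431 bases upstream of its start, 365 and 367 bp from Atp6v1d, so this site lies between both genes. Eif2a (gene ID 229317, chromosome 3, 58525821 to 58557501), which encodes an alternative initiator tRNA carrier and not a subunit of eIF2, scored 10.2 in CD93-positive replicate 2, 67.9 in CD93-negative replicate 1 and 12.1 in CD93-negative replicate 2. Within these lists it ranked 199 of 704 genes with a gene-end summit, 357 of 7040 and 962 of 2827 in that order. All 3 summits lay within 35 bp of each other, 73 to 108 bases inside the gene, and nearer to an end of Serp1 (10 to 45 bp) than to that of Eif2a. Eif2d had no summit within 1000 bp of an end, although CD93-negative replicate 1 had one at 1177 bp with a score of 6.81.

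The eIF2B exchange factor is made of the products of Eif2b1 to Eif2b5. CD93-negative replicate 1 reached 3 of these 5 genes (all genes, 32.2%) and CD93-negative replicate 2 reached 1 (12.9%). CD93-positive replicate 2 reached none (3.22%). Eif2b4 scored 46.0 in CD93-negative replicate 1, at the 82.9th percentile of genes with a gene-end summit, and 5.68 in CD93-negative replicate 2, at the 11.0th percentile. These summits lay 22 and 217 bases upstream of its start, and the second was 94 bp from the end of Snx17, nearer than to Eif2b4. Eif2b2 and Eif2b3 scored 21.5 and 14.3 in CD93-negative replicate 1 alone, within 19 and 1 bp of a gene end. Eif2b1 and Eif2b5 were reached in none of the 4 libraries.

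Of the 4 eIF2 kinases, which sense different stresses, CD93-negative replicate 1 reached 3 (all genes, 32.2%). CD93-negative replicate 2 reached 2 (12.9%) and CD93-positive replicate 2 reached 1 (3.22%). Eif2ak3 (gene ID 13666, chromosome 6, 70844484 to 70905241), encoding PERK of the endoplasmic reticulum stress response, scored 12.7 in CD93-positive replicate 2, 50.2 in CD93-negative replicate 1 and 12.4 in CD93-negative replicate 2. Its rank among genes with a gene-end summit was 91 of 704, 956 of 7040 and 912 of 2827 in that order, in lists of different length. With 711 summits from each list, 2 initiation factor genes, Eif2ak3 and Eif3e, were reached in CD93-positive replicate 2 and in neither CD93-negative library. This pattern held for 1.14% of all genes. The lowest scores kept at that length were 3.09 in CD93-positive replicate 2, 55.7 in CD93-negative replicate 1 and 13.3 in CD93-negative replicate 2. The Eif2ak3 scores of 50.2 and 12.4 lay a little below the cuts of the CD93-negative libraries. Relative to the annotated start, the CD93-positive summit lay at -55 and the CD93-negative ones at -217 and -232, which is 162 and 177 bp from the former. With 1 CD93-positive library at this gene, that shift has no replicate check. Eif2ak4, encoding the amino acid sensor GCN2, scored 54.2 and 11.7 in CD93-negative replicates 1 and 2, with summits 77 and 78 bases upstream of a start and 1 bp from each other. Eif2ak1, encoding the haem-regulated kinase, scored 22.3 in CD93-negative replicate 1 alone. Eif2ak2, encoding the double-stranded RNA sensor PKR, had no summit nearer than 14988 bp to an end in the 3 longer lists.

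The eIF3 genes, whose products form the largest initiation factor, were mostly reached in the longest list alone. CD93-negative replicate 1 reached 12 of 14 eIF3 genes, CD93-negative replicate 2 reached Eif3d alone (score 9.63) and CD93-positive replicate 2 reached Eif3e alone (4.98). The shares of all genes reached were 32.2%, 12.9% and 3.22% in these libraries, and a single gene of 14 is too few to set against the latter 2. Scores in CD93-negative replicate 1 ran from 7.08 at Eif3c to 79.2 at Eif3j1, with a median of 17.2 against 23.9 over all 7040 genes with a gene-end summit there. Reduced to 2755 summits, that library reached 3 of the 14, namely Eif3a (30.8), Eif3f (37.1) and Eif3j1. Eif3j1, the subunit loosely bound to the complex, stood at the 97.5th percentile in CD93-negative replicate 1 and had no summit nearer than 72528 bp in CD93-negative replicate 2. Its near-identical copy Eif3j2 had none in any library, and how reads that fit both copies were placed is not stated. The other 9 eIF3 genes of CD93-negative replicate 1 included Eif3g (7.31), Eif3i (9.97, at a site shared with Tmem234), Eif3b (11.4), Eif3m (14.9), Eif3h (25.2) and Eif3k (25.4, shared with Map4k1), and also Eif3d (19.4). Eif3l had no gene-end summit, and its nearest summits lay 12191 to 12240 bp away in the 3 longer lists.

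Eif3e (gene ID 16341, chromosome 15, 43250040 to 43282736), encoding a peripheral eIF3 subunit, scored 4.98 in CD93-positive replicate 2 and 11.3 in CD93-negative replicate 1, at the 14.0th and 16.9th percentiles. The summits were 78 bp apart at the same gene end. In CD93-negative replicate 2 the nearest summit was 1145372 bp away. It is therefore a low-scoring site in both libraries that list it.

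eIF4F joins the cap-binding protein eIF4E, the scaffold eIF4G and the helicase eIF4A, with eIF4B and eIF4H as helicase cofactors. Of 13 genes of this group, CD93-negative replicate 1 reached 9 (all genes, 32.2%). CD93-negative replicate 2 reached 6 (12.9%) and CD93-positive replicate 2 reached 2 (3.22%). Eif4a1 (gene ID 13681, chromosome 11, 69666936 to 69672423), the main helicase gene, scored 7.87 in CD93-positive replicate 2, 72.5 in CD93-negative replicate 1 and 18.1 in CD93-negative replicate 2. Its ranks among genes with a gene-end summit were 354 of 704, 260 of 7040 and 274 of 2827 in that order. The summits lay 39, 65 and 78 bases upstream of the start. It was reached in all 3 of these libraries at 711 summits.

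Eif4g2 (gene ID 13690, chromosome 7, 111067985 to 111083030), encoding the scaffold DAP5 that lacks the eIF4E-binding part, had the highest score of all 56 genes in CD93-negative replicate 1. Its scores were 8.72 in CD93-positive replicate 2, 117.6 in CD93-negative replicate 1 and 16.5 in CD93-negative replicate 2. It ranked 288 of 704 genes with a gene-end summit, 14 of 7040 and 400 of 2827 in that order. The summits lay within 64 bp of each other and 34 to 98 bp outside 1 end of the gene. Eif4b scored 56.8 and 10.3 in CD93-negative replicates 1 and 2, with summits 24 and 7 bases inside the gene. Eif4a2, the paralog of Eif4a1, scored 23.6 and 9.64 there. Eif4h scored 41.7 in CD93-negative replicate 1 and 3.61 in CD93-negative replicate 2, where the lowest score listed was 3.04. Its rank in the latter was 2796 of 2827. CD93-negative replicate 1 still reached Eif4h at 2755 summits, the whole length of the CD93-negative replicate 2 list.

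Eif4a3, encoding the helicase of the exon junction complex, scored 36.7, Eif4g1, the main scaffold gene, 24.1, and Eif4e2, encoding a cap-binding homolog, 10.1, each in CD93-negative replicate 1 alone. Eif4e1b, an oocyte-type homolog of eIF4E, was counted at scores of 12.3 and 6.41, but these summits lay 700 and 889 bp from it and 57 and 246 bp from Tspan17. Eif4a3l1 and Eif4e3 had no gene-end summit. Eif4e, the cap-binding protein gene, and Eif4g3 were also without one, but CD93-negative replicate 1 listed a site inside each at a second annotated start. The Eif4e site (score 38.4, 138527204 on chromosome 3) lay 64 bases upstream of a start that is 1077 bp into the gene record. The Eif4g3 site (10.4, 137993357 on chromosome 4) lay 98 bases upstream of a start 1676 bp into the record. Counting summits within 1000 bp of any annotated start, 36 of the 44 genes with a start in the table were reached in CD93-negative replicate 1, against 34.9% of all genes with one. The counts were 15 of 44 (all genes, 14.1%) in CD93-negative replicate 2, 4 of 44 (3.60%) in CD93-positive replicate 2 and 0 of 44 (0.0172%) in CD93-positive replicate 1.

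Of the 4 regulators that bind eIF4E, 3 were reached in CD93-negative replicate 1 (all genes, 32.2%). None was reached in CD93-negative replicate 2 (12.9%), CD93-positive replicate 2 (3.22%) or CD93-positive replicate 1 (0.0183%). Eif4ebp2, a repressor released by mTORC1 signalling, scored 45.9 at the 82.7th percentile. Eif4ebp1, its homolog, scored 6.68, the lowest of the 43 genes. Eif4enif1, encoding the nuclear importer of eIF4E, scored 32.6. Eif4ebp3 had no gene-end summit, and its nearest summit in CD93-negative replicate 1 was 13119 bp away.

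The median score of the genes reached lay somewhat above that of all genes in each of the 3 longer lists. In CD93-negative replicate 1 the 43 genes had a median score of 26.2, against 23.9 over all 7040 genes with a gene-end summit, and 25 of 43 lay above the latter. The medians were 12.1 against 10.1 in CD93-negative replicate 2 and 9.44 against 7.95 in CD93-positive replicate 2. In CD93-negative replicate 1, 9 genes lay in the highest 10% of genes by score and 3 in the lowest 10%.

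Where a start was known, the open sites lay at gene starts, as did most of those of all genes. Strand and start came from the RefSeq promoter table, which held 44 of the 56 genes. Of the 34 genes with both a table start and a gene-end summit from CD93-negative replicate 1, all 34 had the highest-scoring summit within 1000 bp of a start, against 93.9% of all such genes, and 91.2% had it within 250 bp, against 84.3%. All 15 in CD93-negative replicate 2 and all 4 in CD93-positive replicate 2 also lay within 1000 bp of a start, against 94.1% and 96.5% of all such genes. The median distance from the start was 53.0 bp in CD93-negative replicate 1 (all genes, 76 bp) and 106 bp in CD93-negative replicate 2 (121 bp). It was 47.5 bp over the 4 genes in CD93-positive replicate 2 (129 bp). Of the summits, 73.5% were upstream of the start in CD93-negative replicate 1, and 67.0% were among all genes.

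**Figure D3:**
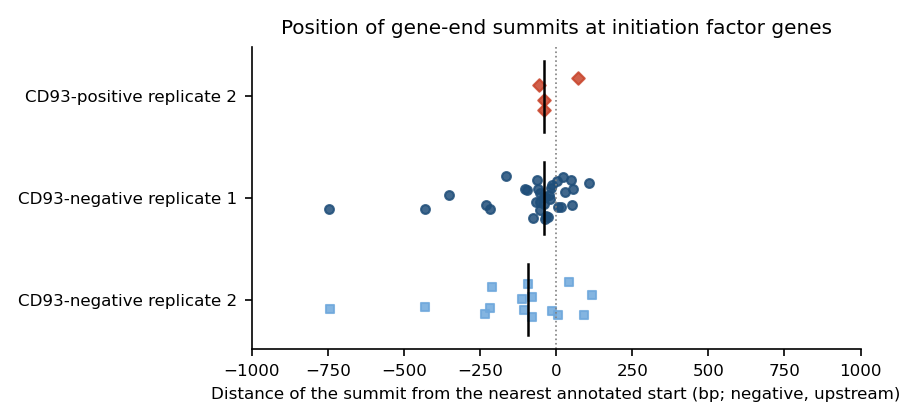
The horizontal axis is the distance in bp from the nearest annotated start to the highest-scoring gene-end summit, negative upstream, and each point is 1 initiation factor gene with a start in the table. Rows are libraries, points are spread vertically for visibility, and black bars are medians. Most points lie within 250 bp of the start, and the 2 points near -747 and -744 are Eif5b.

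The libraries listed the same positions. For the 6 genes in CD93-positive replicate 2 and CD93-negative replicate 1, the highest-scoring summits lay 26 to 162 bp apart, with a median of 43.5 bp. For the 17 genes in both CD93-negative libraries, they lay 1 to 195 bp apart with a median of 43.0 bp, against 53.0 bp over all 2785 genes in both. All 6 and all 17 were within 250 bp, where 97.0% and 94.8% of all genes listed in the same pairs of libraries were.

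Part of the sites also belonged to a neighbour. In CD93-negative replicate 1 the highest-scoring summit of 12 of 43 genes lay within 1000 bp of an end of another protein-coding gene, or 27.9%, against 32.3% of all genes with a gene-end summit. It did so for 7 of 17 in CD93-negative replicate 2, or 41.2% against 38.5% of all genes. In CD93-positive replicate 2 it did so for 2 of 6, Eif2a and Eif4a1, or 33.3% against 33.2%. When each summit was given only to the gene with the nearest end, 37, 12 and 5 initiation factor genes were counted in CD93-negative replicates 1 and 2 and CD93-positive replicate 2. The shares of all genes were then 27.4%, 10.4% and 2.69%. CD93-positive replicate 1 again had 0, where 0.0137% of all genes had one.

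The promoter sequences of these genes were rich in CG. Over the 300 bases of the table, taken at the start nearest the end of the gene record, the 44 promoters had a median of 61.0% G and C and 23.5 CpG dinucleotides, against 56.3% and 13 over 17491 protein-coding promoters. The promoters of all 5807 genes with a gene-end summit from CD93-negative replicate 1 had 62.3% and 24.0, near the values of the initiation factor genes reached there (62.5% and 24.0). CCGGAA was found in 20 of 44 promoters, or 45.5%, against 19.1% of all promoters and 34.4% of promoters of the genes reached. GGGCGG was found in 72.7%, against 46.3% and 72.0%. CACGTG was found in 8 promoters (Eif1b, Eif3a, Eif3f, Eif3k, Eif4a1, Eif4g1, Eif4h and Eif5a2), or 18.2%, against 7.91% and 11.6%. CCAAT was found in 31.8%, against 39.2% and 42.4%. The 44 include 10 promoters of genes not reached in CD93-negative replicate 1. In the other 34, which compare with the genes reached, CCGGAA was found in 15, GGGCGG in 27, CACGTG in 8 and CCAAT in 11.

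Other motifs were rare in these promoters. GCGCATGCG (NRF1) was found in 3 promoters, those of Eif2s1, Eif3k and Eif4h, or 6.82%, against 2.41% of all promoters and 5.13% of those of the genes reached. AAGATGGCG (YY1) was found in 1, that of Eif2s3y, or 2.27%, against 1.92% and 4.25%. TGATGNAAN, an amino acid response sequence, was found in 1, that of Eif2s3x, or 2.27%, against 3.66% and 1.96%. The TATA box TATAAA was found in 4, or 9.09%, which is below the 13.3% of all promoters and above the 5.73% of those of the genes reached. TGACGTCA, the cyclic AMP response element, was found in none of the 44, against 2.33% and 4.34%. In the 34 promoters of initiation factor genes reached in CD93-negative replicate 1, the counts were 3, 0, 1, 3 and 0 in that order. Each motif was searched on both strands, and none of them contains another.

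**Figure D4:**
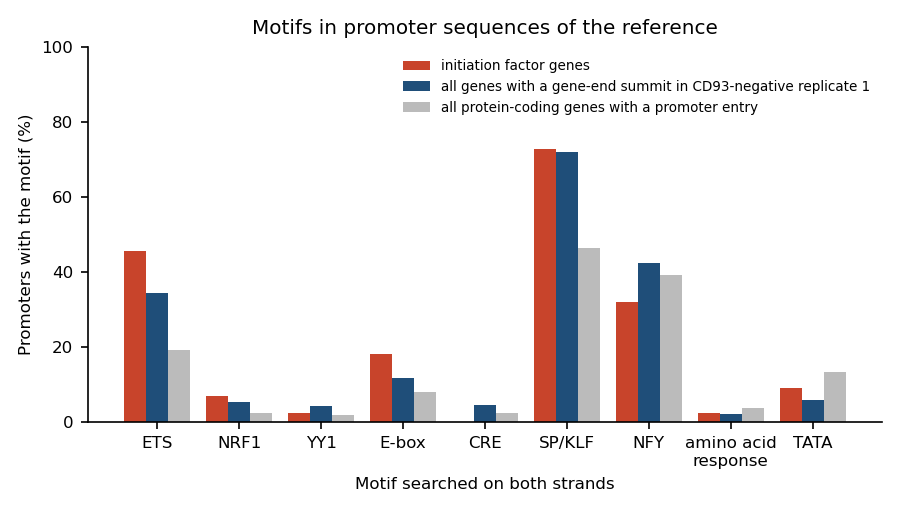
Bars give the percent of promoters with each motif, over 44 initiation factor genes, 5807 genes with a gene-end summit from CD93-negative replicate 1 and 17491 protein-coding genes. The bars of the initiation factor genes stand at 45.5% for the ETS motif and 72.7% for the SP and KLF motif, and no bar is drawn for them at the cyclic AMP response element, which none held.

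Genes of the later steps of translation and of its control were counted in the same way. Of 37 matched genes of elongation, termination, mRNA binding and stress signalling, CD93-negative replicate 1 reached 28 (75.7%), CD93-negative replicate 2 reached 18 and CD93-positive replicate 2 reached 5, against none in CD93-positive replicate 1. The shares of all genes were 32.2%, 12.9%, 3.22% and 0.0183% in that order. With 711 summits from each list the counts were 10, 7 and 5, where 3.28%, 3.38% and 3.22% of all genes were reached. The 5 in CD93-positive replicate 2 were Etf1 (a release factor, score 13.6), Pabpc1 (a poly(A)-binding protein, 12.6), Ppp1r15b (which directs dephosphorylation of eIF2, 6.94), Eef1g (an elongation factor subunit, 6.94) and Mknk2 (a kinase of eIF4E, 6.73). Pabpc1 scored 103.5 and 29.1 and Etf1 128.0 and 13.9 in CD93-negative replicates 1 and 2. Atf4 and Ddit3, transcription factors downstream of the eIF2 kinases, scored 61.4 and 81.1 in CD93-negative replicate 1 and 10.9 and 9.55 in CD93-negative replicate 2. Neither was listed at a gene end in a CD93-positive library.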

How the data were processed

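ATAC-seq was done on 4 libraries, 2 of each fraction. The submitters' processing notes name Bowtie2, MACS2 and mm10. Tool versions, read filters, the call threshold and any shift for Tn5 were not given in the sources used here, and each could change how many summits a library lists. Each deposited file lists the summits of 1 library, with a score as deposited by the authors that was taken as a −log10 p or q value; which of both is not stated. Depth is unknown.

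Gene ends were read from RefSeq's GRCm38.p6 gene table, keeping protein-coding genes of the autosomes and sex chromosomes. For each gene, the highest-scoring summit within 1000 bp of either end was taken, and summits within 250 bp were called the same site. Fractions were compared by an exact permutation test over libraries. Lists of genes are described by counts beside those of all genes, without a test. The matching step was tested on simulated data. Python 3.11.15, numpy 2.4.6, pandas 2.3.3, scipy 1.17.1 and matplotlib 3.10.9 were used.

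The members, factor groups and other gene lists were chosen with earlier results of these data known. Every member was accounted for. Scores in each library were given for members reached in a CD93-positive library, or at equal list length in both CD93-negative ones. Of the others, the 3 of highest percentile in each CD93-negative library and the members of factor groups with no more than 5 members reached were named, and members without a summit were named by group.

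Alternatives were other windows (500 and 2500 bp), annotated starts only, score minimums of 5 and 10, nearest gene end only, equal list lengths, other same-site distances (100 and 500 bp), leaving out sex-linked and duplicated genes, pairing by replicate number as a block, and omitting each library in turn. Gcn1l1 matched no symbol.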

Additional observations from a re-analysis of the deposited data

How the results depend on the processing

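The difference of 27 genes between the fractions (CD93-negative minus CD93-positive) was 22 to 28.5 under other windows, score minimums, annotated starts only or the nearest gene end only, and 14 to 40 without 1 library, lowest without CD93-negative replicate 1. It was 0 with 21 summits from every list, which is too short to compare, and 1.5 with 711 from the 3 longer lists. The second setting was added after seeing the data, and fewer summits entered by construction. With a score of at least 10, CD93-positive replicate 2 reached 3 genes and CD93-negative replicate 2 reached 11. At 2755 summits the CD93-negative replicates 1 and 2 reached 20 and 17 genes. Counts of genes and same-site counts under the other settings stayed within 1.5 times the values reported. Of 66 best scores, none changed at 2500 bp, and of the 61 present at 500 bp that of Eif6 alone did. The replicate numbers used are those of the sample titles, and the summit names inside 3 of the 4 deposited files carry other numbers. The replicate block, which paired libraries by the number in their titles, left the difference at 27 genes (exact sign-flip permutation p = 0.500, the smallest that 2 pairs allow). Same-numbered libraries deviated together with r = 0.18 over 7085 genes and the crossed pairs with r = -0.18, values that mirror each other with 2 libraries a group and do not show that the numbers pair them. Leaving out sex-linked and duplicated genes left 49 genes, of which 6, 8 and 6 were reached at equal list length in CD93-positive replicate 2 and CD93-negative replicates 1 and 2.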
